A study of Mus musculus with 4 samples.

Results

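The genes described here are 40 mouse genes of glycolysis and of the hypoxia response, chosen by symbol: glycolytic enzymes, carriers of glucose and lactate, the 2 main alpha subunits of the hypoxia-inducible factors (HIF), and genes that these factors are known to induce. All 40 were listed among the 23337 genes of the count tables, and 39 had 20 or more counts in at least 1 library. Eno1, an enolase of the lower part of glycolysis, did not: it had 6 and 8 counts before culture and 0 and 4 after it in wild type and mutant. Its sequence is shared with 3 near-identical genes, and its level was not analysed further.

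RNA was sequenced from lymphatic endothelial cells of mouse embryos at embryonic day 14.5. Cells from the dorso-anterior region of 1 pooled litter for each genotype, wild type or homozygous for a deletion, were sorted as CD45 negative, LYVE1 positive and VE-cadherin (CD144) positive; the study's title names an enhancer bound by GATA2, and the deleted interval is not given in the labels used here. Part of each sort was lysed at once ("before culture"). The rest was kept on a feeder layer of OP9 cells, a stromal line, for 7 days with FLT3L, IL3 and SCF at 100 ng/ml each, and was sorted again for LYVE1 and VE-cadherin ("after culture"). Each of the 4 groups is 1 library, so a comparison of 2 libraries carries counting error only.

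Glycolysis splits glucose to pyruvate in the cytosol, and lactate dehydrogenase turns pyruvate into lactate, which monocarboxylate carriers export. Endothelial cells are known to draw much of their ATP from this route. The alpha subunits HIF1A and EPAS1 (also called HIF2A) are hydroxylated by the EGLN enzymes when oxygen is present and are then degraded. When oxygen is low they pair with ARNT and bind DNA at sites with the core ACGTG or GCGTG, near genes of glycolysis, mitophagy and collagen modification; this control acts on the protein, which RNA does not measure.

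Gene counts ran from 1694669 to 7943587 a library and were 7.94 to 10.5% of the read pairs. Pairs aligned outside any counted feature were 66.5 and 53.6% before culture in wild type and mutant and 19.996 and 30.3% after it, and pairs that did not align were 21.4 and 34.1%, then 67.6 and 56.2%, so both moved with culture, and their part in the results below was not tested. Counts of 1432 olfactory and vomeronasal receptor genes, which these cells should not express, were divided by their coding length. This gave a background of 6.63 and 8.33 counts per kb before culture in wild type and mutant, and of 0.536 and 1.61 after it. By that rate, applied to exon lengths, background could make up more than 50% of the counts of 4, 1, 4 and 2 of the 39 members. The order is wild type before, mutant before, wild type after and mutant after culture. The 4 in wild type after culture take in Eno2 and Car9, which had 0 counts there. The low members Aldoc, Eno2, Slc16a3 and Slc2a3 were those concerned in the library of wild type before culture. The 8 lymphatic markers summed to 7590 and 7177 CPM (counts scaled to a common library size) before culture and 7517 and 6324 after it, with Ccl21a at 0 in every library and Pdpn at 0 in wild type after culture. Markers of other cells moved with the groups. The 8 genes of stroma summed to 3280 CPM in wild type and 5236 in mutant before culture, against 1173 and 980 after it, with Lum at 0 in wild type after culture. The 6 cartilage genes summed to 788 and 1211, then 251 and 278. The 8 pan-endothelial genes summed to 3794 and 4025, then 11727 and 10629. The 6 leukocyte genes summed to 133 and 134, then 220 and 219. All 6 had 20 or more counts in both fresh libraries, but only 1 in wild type and 4 in mutant after culture. Coro1a was at 0 in wild type after culture. Background could account for 283 of the 664 leukocyte counts in wild type before culture. The 6 adipocyte genes, among them Fabp4, which endothelium is also known to express, summed to 69.8 and 62.8, then 548 and 422. The 6 mast cell genes summed to 94.9 and 116, then 177 and 103, with 4 and 5, then 4 and 1 of them at 20 or more counts. In RNA of bulk samples, fewer cells of a type and less RNA for each cell cannot be told apart, and the part of these cell types in the results below was not tested.

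All CPM are TMM-scaled, which sets libraries to a common level by the bulk of their genes. Levels of different genes are ranked only per kb of exon. The length takes in every annotated exon of a gene, so it can exceed that of the transcripts present. Ranks under other lengths were not tested. Reads could also be split or lost between near-identical genes, of which Gapdh has 77, Pgk1 4, Ldha 3, Pkm2 1 and Aldoa 0. The ranks are therefore of counted reads, and the part of such copies in them was not tested. Before culture the highest member per kb was Aldoa, the main aldolase, at 56.3 CPM per kb in wild type and 68.8 in mutant. Pkm2, the older symbol of the pyruvate kinase Pkm, followed at 49.8 and 62.1, and Ldha, the main lactate dehydrogenase subunit, at 44.7 and 57.0. The counting intervals of Aldoa and Pkm2 touched in wild type (52.5 to 60.3 against 47.1 to 52.6) and did not overlap in mutant, while those of Pkm2 and Ldha overlapped in wild type. After culture Epas1 stood first in both genotypes, at 280 CPM per kb in wild type and 226 in mutant. Aldoa came second in wild type (180 against 151 for Pkm2) and Pkm2 in mutant (159 against 146 for Aldoa). Their counting intervals overlapped in mutant (153 to 165 for Pkm2 against 139 to 154 for Aldoa) and did not in wild type. P4ha1 came next in both, at 86.5 and 87.3.

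**Figure D1:**
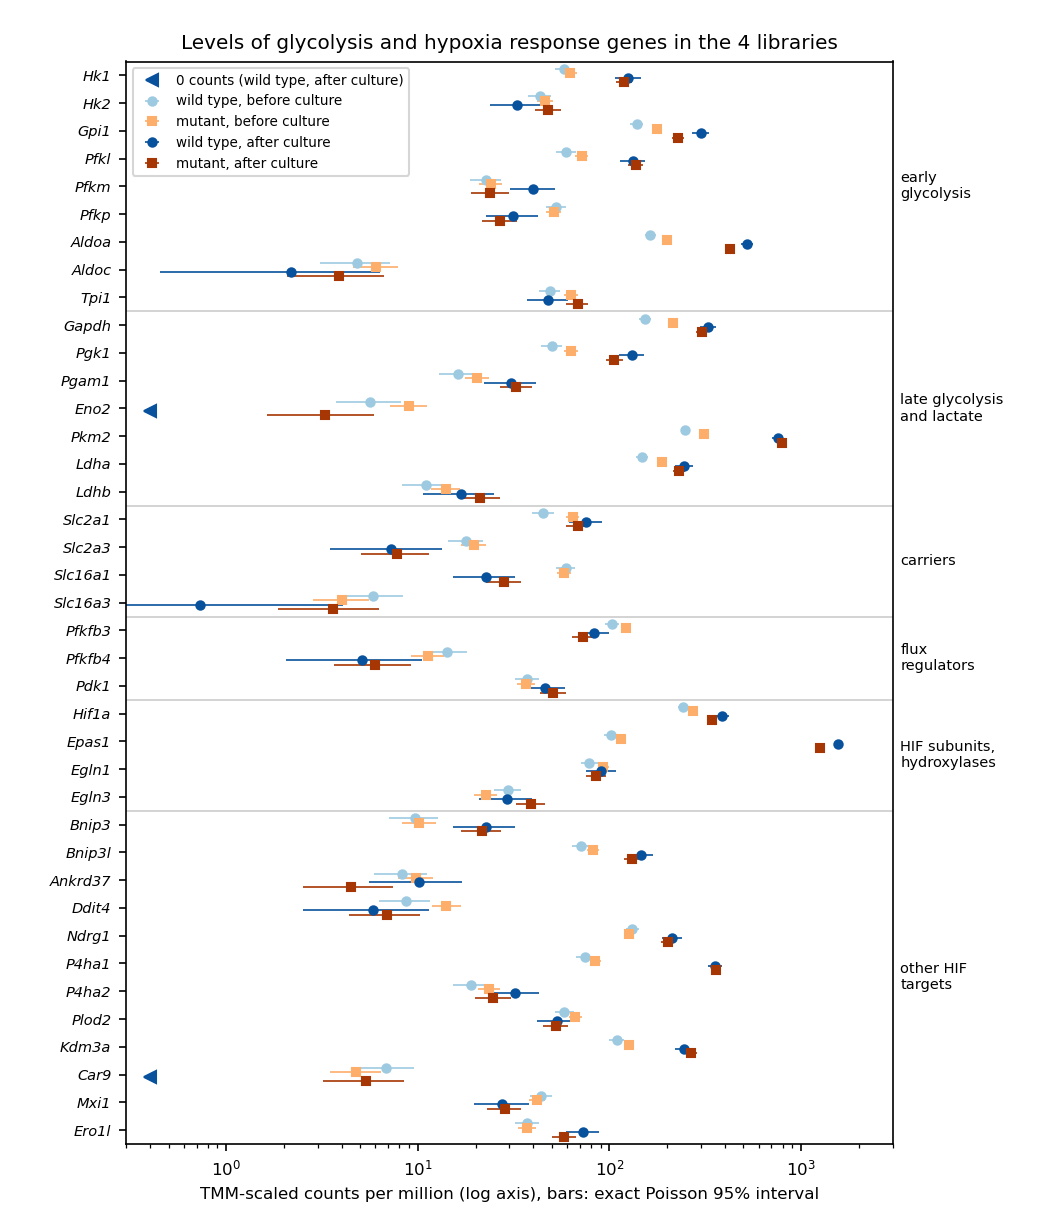
TMM-scaled CPM (log axis) of the 39 members in the 4 libraries, with exact Poisson 95% intervals; triangles stand for 0 counts, and an interval cut by the left edge goes on beyond it. The points of Epas1 after culture, at 1563 and 1263 CPM, lie farthest to the right, and those of P4ha1, Pkm2 and Aldoa after culture also lie right of both points before culture.

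The first question was which of these genes differed after culture in both genotypes. Over both genotypes, 17 of the 39 members rose and 7 fell, beside 24.1% of all 18949 genes tested that rose and 16.5% that fell. The largest rises were those of Epas1 (12.9-fold) and of P4ha1, a collagen prolyl hydroxylase subunit (4.50-fold). The test was edgeR's quasi-likelihood fit with terms for genotype and culture, 2 libraries after against 2 before culture, at an adjusted p under 0.05. The median log2 fold of the members was 0.40, beside -0.17 over all genes. That baseline depends on the count minimum: at 50 counts the median over all genes was 0.13. There 17 of 37 members rose and 7 fell, beside 4677 and 3094 of 14963 genes. The counts at the main minimum of 20 also depend on the scale. With total gene counts in place of TMM the median of all genes moved by -0.52 on the log2 scale. Then 8 members rose and 12 fell, beside 1955 and 6478 of all 18949 genes. The share of calls that were rises went from 59.3 to 23.2% over all genes. The fit has 1 residual degree of freedom for each gene, which also holds any difference between the genotypes in their response to culture, and 1 litter for each genotype. With background subtracted and the scale recomputed, 5 of the rises (Gpi1, Pgam1, Ldha, Hif1a and Ndrg1) and 2 of the falls (Eno2 and Pfkfb4) no longer passed. There 12 of 38 members rose and 6 fell, beside 3018 and 1762 of 16081 genes. The counts by role below are to be read against the same 24.1% and 16.5% of all genes. Across the 13 alternative settings, 8 members rose in each (Hk1, Pfkl, Aldoa, Pgk1, Pkm2, Epas1, P4ha1 and Kdm3a), and Slc16a1 was the only one of the 7 lower members that fell in each.

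Of the 9 enzymes of the upper part of glycolysis, 4 rose and 1 fell. Aldoa stood at 164 and 200 CPM before culture in wild type and mutant and at 523 and 425 after it. Both cultured libraries lay above both fresh ones, and the fitted change was 2.59-fold (log2 1.37 ± 0.19 SE, adjusted p = 5.65e-12). Hk1, a hexokinase that phosphorylates glucose on entry, stood at 58.2 and 62.2 CPM before culture and 125 and 119 after it (2.02-fold, adjusted p = 1.44e-06). Pfkl, the liver-type subunit of phosphofructokinase, stood at 59.4 and 71.6, then 132 and 137 (2.05-fold, adjusted p = 5.94e-07). For both genes the 2 fresh and the 2 cultured libraries were well apart and the genotypes close together. Gpi1, which turns glucose phosphate into fructose phosphate, rose 1.64-fold (adjusted p = 0.000577), from 139 and 178 CPM to 299 and 227, so the genotype with the higher level was the mutant before and the wild type after culture. Pfkp, the platelet-type phosphofructokinase subunit, fell 1.81-fold (adjusted p = 0.001), from 52.8 and 51.2 CPM to 31.3 and 26.9. Hk2, Pfkm, Tpi1 and Aldoc did not pass the test, with log2 folds of -0.13, 0.37, 0.05 and -0.81. Aldoc, a brain-type aldolase, had only 24, 56, 3 and 13 counts, of which background could account for 90.1% in wild type before culture.

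Of the 7 fitted enzymes of the lower part of glycolysis and of lactate formation, 5 rose and 1 fell. Pkm2, which makes pyruvate and ATP in the last step, stood at 249 and 310 CPM before culture and 754 and 794 after it. That is a 2.78-fold change (log2 1.47 ± 0.19 SE, adjusted p = 3.67e-13), with the cultured libraries of both genotypes close together. Pgk1, which makes the first ATP of the pathway, stood at 50.2 and 63.0 CPM, then 131 and 106 (2.06-fold, adjusted p = 8.00e-07). Gapdh stood at 154 and 213 CPM, then 327 and 303 (1.73-fold, adjusted p = 0.000134). Both of these genes, often used as references for constant expression, were lowest in wild type before culture and highest in wild type after it. Pgam1, a phosphoglycerate mutase, rose 1.71-fold (adjusted p = 0.0133). Ldha rose 1.42-fold (adjusted p = 0.0192), but with total gene counts its log2 fold was -0.03. Ldhb, the other lactate dehydrogenase subunit, did not pass (log2 fold 0.60, adjusted p = 0.136). Eno2, the neuronal enolase, had 28 and 83 counts before culture and 0 and 11 after it, and fell by 1.99 on the log2 scale (adjusted p = 0.0122). Background could account for all of its counts in wild type before culture. Near-identical copies bear on this group: Gapdh has 77 copies of 95% identity or more over at least 300 bases, 74 of them pseudogenes, Pgk1 has 4, Ldha 3, and Gpi1, Tpi1, Pgam1, Pkm2 and Ldhb 1 each, so reads could be split or lost between them.

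Of the 4 carriers 2 fell, and of the 3 regulators of flux 2 fell, beside 16.5% of all genes; the difference between these groups and the enzymes was not tested. Slc16a1, the monocarboxylate carrier MCT1, stood at 59.0 and 58.2 CPM before culture and 22.6 and 28.1 after it (2.27-fold lower, log2 -1.18 ± 0.23 SE, adjusted p = 2.75e-06). Both genotypes were alike in each state, and the fresh and cultured libraries did not overlap. Slc2a3, the glucose carrier GLUT3, stood at 17.9 and 19.6, then 7.28 and 7.78 (2.49-fold lower, adjusted p = 0.00223), of which background could account for 53.9% in wild type before culture. Slc2a1, the glucose carrier GLUT1, stood at 45.0 and 64.3 CPM, then 75.7 and 68.2, and did not pass (log2 fold 0.38, adjusted p = 0.115). Slc16a3, the lactate exporter MCT4, had 29, 37, 1 and 12 counts, and in both fresh libraries its expected background exceeded its counts. Pfkfb3, which makes the allosteric activator of phosphofructokinase and is a known regulator of endothelial glycolysis, stood at 103 and 122 CPM, then 82.9 and 73.0 (1.46-fold lower, adjusted p = 0.0162). Its relative Pfkfb4 fell 2.19-fold (adjusted p = 0.0332) on 71, 104, 7 and 20 counts. Pdk1, a kinase that holds back pyruvate dehydrogenase, did not pass (log2 fold 0.40, adjusted p = 0.126).

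Among the HIF subunits, Epas1 changed more than any other member. It had 510 counts in wild type and 1064 in mutant before culture, and 2148 and 4222 after it. These are 102 and 115 CPM before and 1563 and 1263 CPM after culture. The change was 12.9-fold over both genotypes (log2 3.69 ± 0.21 SE, adjusted p = 4.49e-63), 15.3-fold in wild type (95% interval 13.9 to 16.9) and 10.9-fold in mutant (10.2 to 11.7). Hif1a stood at 242 and 273 CPM before and 386 and 341 after culture (1.41-fold, adjusted p = 0.0224), and with total gene counts its log2 fold was -0.04. So Hif1a was the more abundant of the 2 subunit transcripts before culture, per kb too, and Epas1 after it. Egln1, the main oxygen-sensing prolyl hydroxylase, stood at 78.5, 92.9, 90.2 and 85.5 CPM and did not pass (log2 fold 0.03, adjusted p = 0.914). Egln3, a hydroxylase that HIF is known to induce, stood at 29.5, 22.7, 29.1 and 38.9 CPM and did not pass either (log2 fold 0.44, adjusted p = 0.137). A gene on the same strand and another on the opposite strand overlap Hif1a in the annotation. Pkm2 and Pfkm also overlap a gene on the same strand, and several members, among them Aldoa, Gapdh and Pfkp, overlap one on the opposite strand.

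Of the 12 other HIF targets 6 rose and 1 fell. P4ha1, the catalytic subunit of an enzyme that hydroxylates collagen prolines, stood at 74.3 and 84.6 CPM before culture and 356 and 359 after it. The genotypes differed little in either state, and the change was 4.50-fold (log2 2.17 ± 0.19 SE, adjusted p = 4.04e-28). Kdm3a, a histone demethylase, stood at 109 and 126 CPM, then 244 and 267 (2.17-fold, adjusted p = 1.99e-08). The mitophagy receptors Bnip3 (2.20-fold, adjusted p = 0.00367) and Bnip3l (1.79-fold, adjusted p = 6.18e-05) also rose, Bnip3 from 9.63 and 10.2 CPM to 22.6 and 21.5, although Bnip3 has 5 near-identical genes. Ndrg1, a stress-responsive gene, rose 1.60-fold (adjusted p = 0.00119), and Ero1l, an oxidase of the endoplasmic reticulum that forms disulfide bonds, rose 1.73-fold (adjusted p = 0.000844). Mxi1, an antagonist of MYC, fell 1.52-fold (adjusted p = 0.0288), from 44.0 and 41.9 CPM to 27.6 and 28.4. Ankrd37, Ddit4, P4ha2, Plod2 and Car9 did not pass, with log2 folds of -0.46, -0.86, 0.38, -0.24 and -0.88. Ddit4 is an inhibitor of mTOR signalling, P4ha2 and Plod2 modify collagen, and Car9 is the cell-surface carbonic anhydrase widely used as a marker of hypoxia. Car9 had 34 and 44 counts before culture and 0 and 18 after it: against a floor of 3 counts it was at least 3.13-fold lower in wild type, and the 95% interval, which also carries the error of the 34 counts, reached up to 0.415 of the fresh level. Background could account for 44.9% of those 34 counts. In mutant its fold was 1.13 (95% interval 0.613 to 1.99).

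Within each genotype a member was called where the whole 95% counting interval of its fold lay past 2-fold. In wild type 5 of 39 members were called higher, Aldoa, Pgk1, Pkm2, Epas1 and P4ha1, beside 8.17% of the 17154 genes measured. Car9 alone was called lower, beside 5.77% of genes. In mutant 3 of 39 members were called higher, Pkm2, Epas1 and P4ha1, beside 5.19% of the 18807 genes measured, and 3.62% of genes but no member were called lower. The median log2 fold of the members was 0.67 in wild type and 0.29 in mutant, beside -0.04 and -0.10 over all genes. The fold lay above 1 for 24 members in wild type, beside 48.9% of genes, and for 25 in mutant, beside 46.2%. The interval lay above 1 for 20 members in wild type (33.9% of genes) and 20 in mutant (32.4%), and below 1 for 9 (27.3%) and 10 (27.0%). The width of an interval depends on counts, and genes were not matched for counts in these shares or in the calls. Of the wild-type calls, Pgk1 and Pkm2 have near-identical pseudogenes by sequence search; without the 10 measured members that have such a copy, 3 stayed called higher and the median log2 fold was 0.20 in wild type and 0.06 in mutant.

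**Figure D2:**
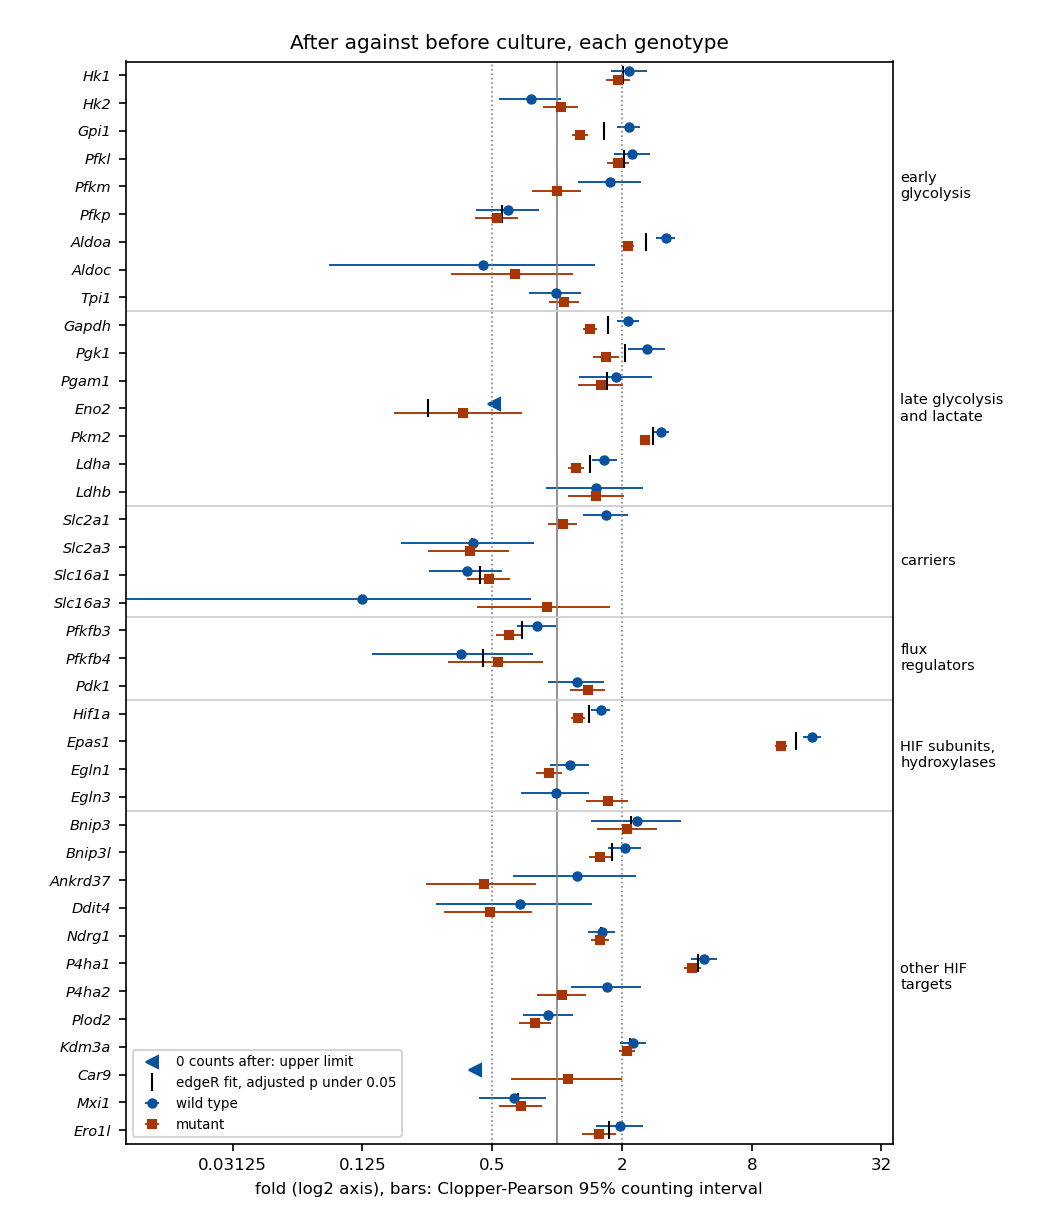
Fold after against before culture (log2 axis) in wild type and mutant, with 95% counting intervals; ticks mark the fitted fold of members that passed edgeR's test over both genotypes, and dotted lines stand at 2-fold. Epas1 at 15.3 and 10.9 and P4ha1 at 4.79 and 4.25 lie farthest right, while Slc16a1 at 0.382 and 0.483 lies left of 1 in both genotypes.

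Because the folds depend on the scale between libraries, related members were also compared within a library, where no scale between libraries enters, although background differs between fresh and cultured libraries. The shares are of counts, not per kb, and serve to compare libraries. Epas1 was 29.8% of the summed counts of Hif1a and Epas1 in both genotypes before culture, and 80.2% (95% Clopper-Pearson interval 78.7 to 81.7) in wild type and 78.7% (77.6 to 79.8) in mutant after it. Of the hexokinase counts of Hk1 and Hk2, the share of Hk2 was 42.7 and 42.5% before and 20.7 and 28.6% after culture. Of the 3 phosphofructokinase subunits, Pfkp went from 39.1 and 34.9% of counts to 15.4 and 14.3%, and Pfkl from 44.0 and 48.8% to 65.0 and 73.0%. In each of these sets the fresh and cultured intervals did not overlap in either genotype. Slc2a3 was 28.4 and 23.4% of the counts of the 2 glucose carriers before and 8.77 and 10.2% after culture, and P4ha2 20.3 and 21.8%, then 8.25 and 6.46%, of the 2 collagen prolyl hydroxylase subunits. With background subtracted, Slc2a3 was 16.9 and 17.7% before and 5.65 and 6.06% after culture, and P4ha2 13.3 and 18.1%, then 7.71 and 5.76%. Per kb of exon, Hk2 was 51.6 and 51.4% of the hexokinase level before and 27.2 and 36.4% after culture, and Pfkp 20.1 and 17.6%, then 6.84 and 6.75%, of phosphofructokinase. The share of Ldhb in the lactate dehydrogenase counts was 6.94, 6.91, 6.39 and 8.40% in wild type before, mutant before, wild type after and mutant after culture, with overlapping intervals. Egln3 was 27.3 and 19.6% of the Egln1 and Egln3 counts before and 24.4 and 31.2% after culture, so its share was lower in the mutant before culture and overlapped between genotypes after it. The intervals cover counting error only, and these shares were chosen after the folds were seen.

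**Figure D3:**
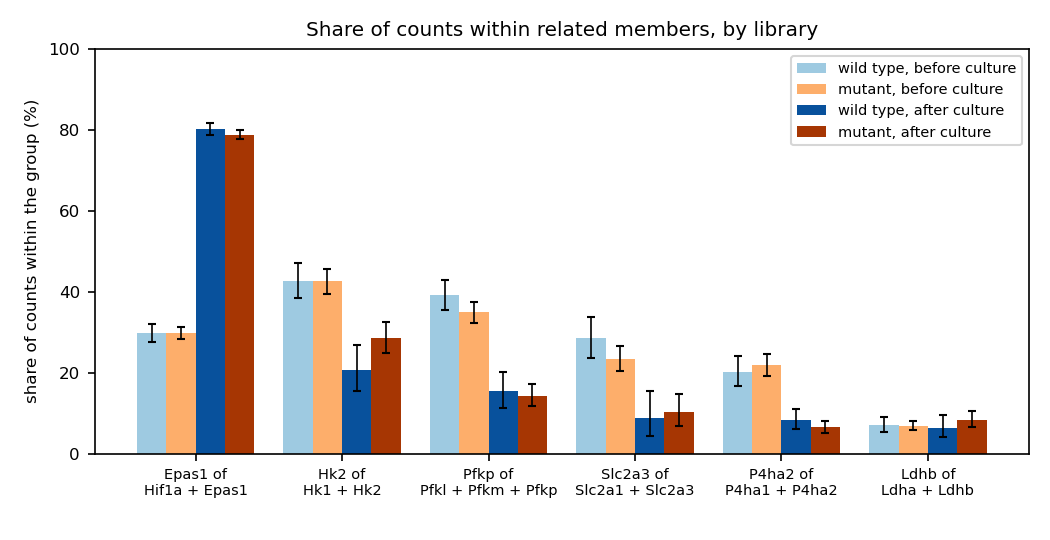
Share of counts (%) of 1 member within a set of related members in each of the 4 libraries, with 95% Clopper-Pearson intervals. The bars of Epas1 go from 29.8% in both fresh libraries to 80.2 and 78.7% in the cultured ones, those of Hk2, Pfkp, Slc2a3 and P4ha2 are lower after culture, and those of Ldhb stay between 6.39 and 8.40%.

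The ACGTG core was looked up in promoters, since these genes were chosen as HIF targets or as enzymes that HIF is known to induce. RefSeq windows of 300 bases, 250 before to 50 after a start site on GRCm38.p6, were found for 35 of the 40 members (52 windows); Epas1, Slc2a3, Bnip3l, Ndrg1 and Plod2 had none. On either strand ACGTG was in 55.8% of the members' windows, beside 19.6% of all 32851 windows, and GCGTG in 53.8%, beside 32.4%. Counted by gene, 25 of 35 members (71.4%) had an ACGTG, beside 21.8% of all 27025 genes. Among members with a window it was present in 11 of 14 that rose after culture, 3 of 6 that fell and 11 of 14 that did not pass. The stretch before the start site is shown for 4 members: P4ha1, Pgk1 and Bnip3, which rose, and Slc16a1, which fell. Capitals mark ACGTG, which reads CACGT where it lies on the opposite strand, and CACGTG where the pair overlaps. P4ha1 (chr10:59323046-59323295, plus strand) has 1, which begins at -16 from the start site. Pgk1 (chrX:106186850-106187099, plus strand) has 2, at -150 and -131. Bnip3 (chr7:138909507-138909756, minus strand) has an overlapping pair at -108 and -107, and Slc16a1 (chr3:104638414-104638663, plus strand) an overlapping pair at -200 and -199. A match describes the letters and is not a measured binding site.
P4ha1: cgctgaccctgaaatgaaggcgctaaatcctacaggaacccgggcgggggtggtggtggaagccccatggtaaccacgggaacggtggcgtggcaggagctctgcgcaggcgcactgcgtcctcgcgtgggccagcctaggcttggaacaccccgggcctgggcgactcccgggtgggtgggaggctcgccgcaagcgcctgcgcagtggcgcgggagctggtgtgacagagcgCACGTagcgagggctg
Pgk1: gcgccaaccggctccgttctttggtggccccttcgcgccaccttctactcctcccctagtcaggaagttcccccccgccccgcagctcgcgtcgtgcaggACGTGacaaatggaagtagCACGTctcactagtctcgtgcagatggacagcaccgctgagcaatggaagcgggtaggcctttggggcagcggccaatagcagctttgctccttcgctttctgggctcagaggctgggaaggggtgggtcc
Bnip3: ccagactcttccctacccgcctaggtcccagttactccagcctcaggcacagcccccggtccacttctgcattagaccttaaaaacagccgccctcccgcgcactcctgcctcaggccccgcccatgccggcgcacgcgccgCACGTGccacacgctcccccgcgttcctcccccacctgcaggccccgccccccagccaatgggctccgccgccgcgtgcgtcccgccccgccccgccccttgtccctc
Slc16a1: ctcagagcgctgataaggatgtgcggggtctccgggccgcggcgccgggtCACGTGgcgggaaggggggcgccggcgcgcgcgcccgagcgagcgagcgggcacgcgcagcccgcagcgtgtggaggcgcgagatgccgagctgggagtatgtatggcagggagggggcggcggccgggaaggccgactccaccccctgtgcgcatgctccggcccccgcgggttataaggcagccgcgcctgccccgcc

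A further 96 genes of neighbouring pathways were listed, and 95 could be fitted; 31 rose and 19 fell after culture over both genotypes, with a median log2 fold of 0.33, beside 24.1% of all genes higher, 16.5% lower and a median of -0.17. The median over all genes was 0.13 at a minimum of 50 counts. With background subtracted and the scale recomputed 85 of the listed genes could be fitted. Of these 19 rose and 14 fell, beside 3018 and 1762 of all 16081 genes fitted there. Of the genes named in the sentences that follow, Tkt, Taldo1, Dld, Pdhb, Pcx, Pgm1, Lox, Myc, Bpgm, Hkdc1 and Ldhc did not pass there, and Slc2a2 could not be fitted. In the pentose phosphate pathway, which branches off at glucose phosphate, 6 of 7 rose, led in counts by Tkt (1.56-fold), Taldo1 (1.43-fold) and Pgd (2.74-fold). Of the 12 genes of the pyruvate dehydrogenase complex, its kinases and phosphatases and the mitochondrial pyruvate carrier, 4 rose. Among these were the subunits Pdha1 (1.69-fold), Dld (1.56-fold) and Pdhb (1.53-fold). The highest log2 fold of the 12, 2.13, belonged to a gene not named here. Of 10 genes of glycogen metabolism 3 rose and 4 fell, with Pgm1 at 1.67-fold, Ugp2 at 2.58-fold and Pgm2 1.89-fold lower. Of 7 gluconeogenic genes 2 rose, Pck2 (3.77-fold) and Pcx (1.81-fold). Of 7 other carriers Bsg, the chaperone of the monocarboxylate carriers, rose 2.42-fold, and Slc2a2 fell 2.74-fold on few counts, while Slc16a1 itself fell. Of 13 genes of the HIF machinery 6 rose and 3 fell, and the partner subunit Arnt (1.76-fold) and the coactivators Ep300 (2.13-fold) and Crebbp (1.65-fold) were among the rises. The 23 further HIF targets went both ways, with 7 higher and 8 lower. Bhlhe40, a circadian and hypoxia-induced repressor, stood at 237 and 293 CPM before and 40.01 and 35.9 after culture (7.10-fold lower, edgeR adjusted p = 3.11e-38). Vegfa, the growth factor that HIF is known to induce, stood at 83.7 and 103 CPM, then 37.1 and 47.5 (2.20-fold lower, adjusted p = 6.66e-07). Lox, which crosslinks collagen, rose 1.54-fold. Of 3 transcription factors known to set endothelial glycolysis, Foxo1 (2.06-fold) and Myc (1.40-fold) rose. Of 10 fitted tissue-restricted isoforms of glycolytic enzymes 3 fell, Bpgm, Hkdc1 and Ldhc, each from under 18 CPM, and the 3 other regulators of phosphofructokinase did not pass.

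The second question was whether the deletion mutant differed from the wild type. Before culture 0 of 39 members were called past 2-fold in either direction, beside 0.0158% of the 18934 genes measured called higher and 0.0475% called lower. Of the smaller differences, 29 members lay above 1 and 10 below, beside 55.2% of genes above 1, with a median log2 fold of 0.21, beside 0.04 over all genes. That median was 0.10 with total gene counts and 0.09 with background subtracted and the scale recomputed. The counting interval lay above 1 for 18 of 39 members, beside 17.6% of genes, and below 1 for Egln3 alone, beside 8.54% of genes. An interval clears 1 more readily at more counts, and genes were not matched for counts here. The same holds for the interval shares after culture. Gapdh was 1.39-fold higher in the mutant (95% interval 1.28 to 1.51), Slc2a1 1.43-fold (1.22 to 1.67), Tpi1 1.30-fold (1.11 to 1.51), Gpi1 1.28-fold (1.17 to 1.40), Ldha 1.27-fold (1.17 to 1.39) and Pkm2 1.25-fold (1.17 to 1.33). On the recomputed scale Ldha was 1.12-fold and Pkm2 1.10-fold higher. Ddit4 had the highest fold, 1.64 (1.15 to 2.37), on 43 and 130 counts. Egln3 was at 0.769 of the wild-type level (0.620 to 0.956). In the same 2 libraries the stromal markers summed to 3280 CPM in wild type and 5236 in mutant, and the cartilage markers to 788 and 1211; their part in these folds was not tested.

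After culture 34 members could be measured and 0 were called, beside 0.244% of the 12309 genes called higher and 0.0731% called lower. The median log2 fold was -0.07, beside 0.00 over all genes, with 15 members above 1 and 19 below and 50.3% of genes above 1. The interval lay above 1 for 2 members, beside 9.48% of genes, and these were Hk2 at 1.46 (1.04 to 2.08) and Tpi1 at 1.42 (1.07 to 1.90). It lay below 1 for 6, beside 12.3% of genes: Gpi1 at 0.759, Pfkm at 0.598, Aldoa at 0.813, Pgk1 at 0.811, Hif1a at 0.884 and Epas1 at 0.808. Tpi1, which interconverts the triose phosphates, was the one member whose interval lay above 1 in both culture states. Over both states together edgeR's fit called 0 of 39 members, beside 0.0106% of the 18949 genes called higher and 0.0211% called lower. At an unadjusted p under 0.05 edgeR's fit gave 1 member, Tpi1 (log2 fold 0.43), and DESeq2 called 0. The fitted genotype folds had a median log2 of 0.09, beside 0.04 over all genes, and 1 litter for each genotype leaves variation between litters unmeasured.

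The 2 genotype folds were then set against each other for the 37 members with a count in each of the 4 libraries. These take in Slc16a3 and Aldoc, with 1 and 3 counts in wild type after culture. The ratio of the fold after to the fold before culture was below 1 for 27 of 37, with a median of 0.860, beside 0.980 over all genes. Its 95% interval from counting error lay below 1 for 14 of 37 members, beside 15.7% of the 17910 genes with a ratio. It lay above 1 for Egln3 alone (1.74), beside 6.31% of genes. Genes were not matched for counts, on which the width of these intervals depends. The ratio was 0.593 for Gpi1, 0.646 for Pgk1 and 0.665 for both Aldoa and Gapdh. These ratios are on the TMM scale. Written the other way round, these enzymes were there higher after than before culture in both genotypes, by more in wild type. The folds in wild type and mutant were 2.15 and 1.28 for Gpi1 and 2.61 and 1.69 for Pgk1. They were 3.19 and 2.12 for Aldoa and 2.13 and 1.42 for Gapdh. With background subtracted and the scale recomputed, Gpi1 had 1.60 and 1.08, Pgk1 1.94 and 1.44, Aldoa 2.29 and 1.79, and Gapdh 1.54 and 1.19. With total gene counts the fitted log2 folds over both genotypes were 0.18 for Gpi1 and 0.25 for Gapdh, and neither passed. No test of the difference between the genotypes is possible with 1 library for each group.

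**Figure D4:**
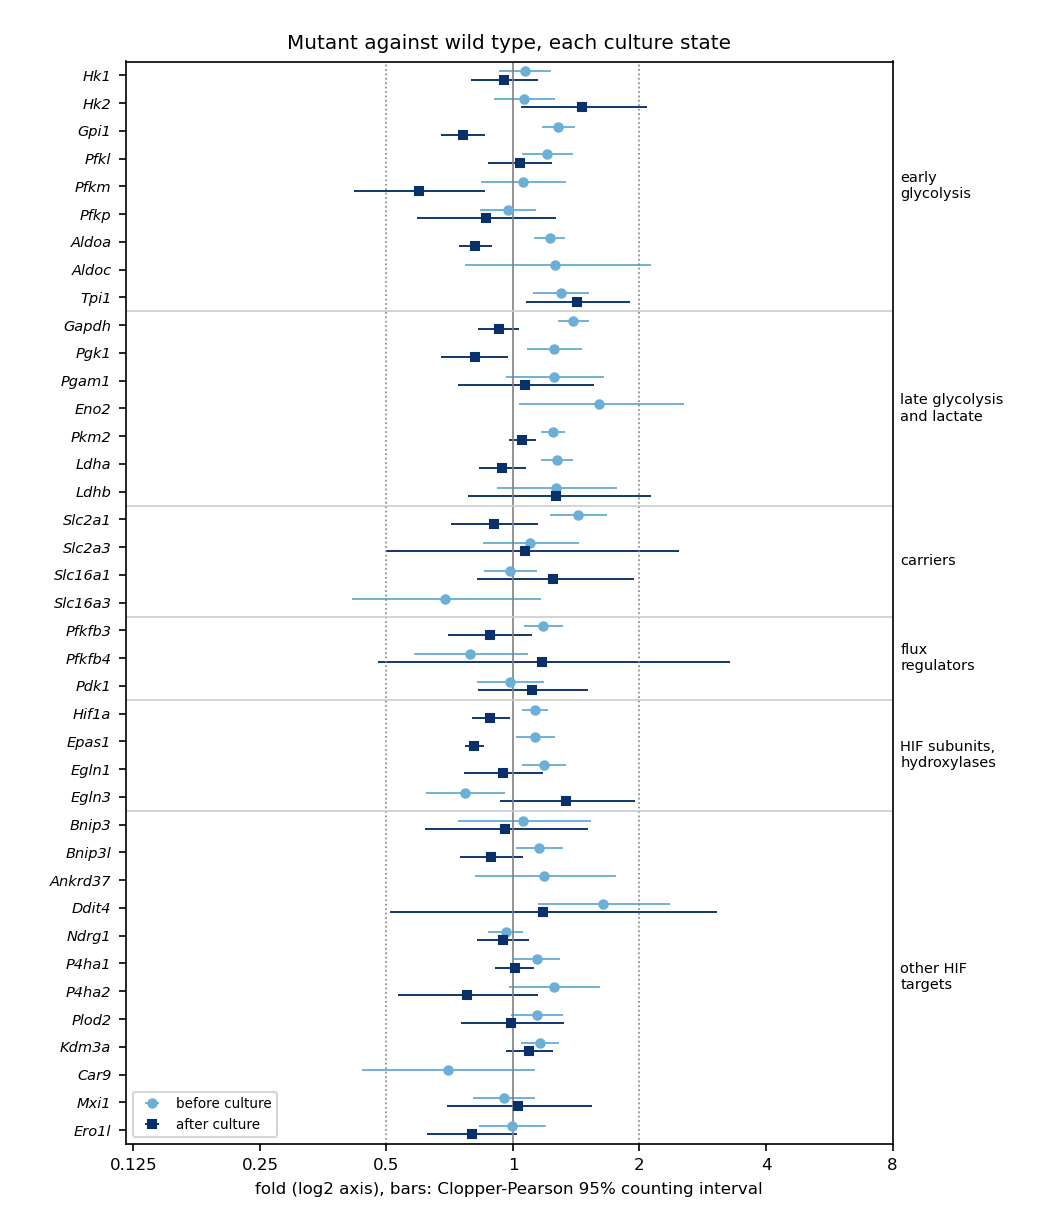
Fold of mutant against wild type (log2 axis) before and after culture, with 95% counting intervals; dotted lines stand at 2-fold, and members without enough counts after culture have no second point. Gpi1, Aldoa, Pgk1, Hif1a and Epas1 lie above 1 before and below 1 after culture, and no interval lies wholly past 2-fold.

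The choice of scale was examined for every member, because it decides the sign of small folds. Epas1 and P4ha1 had log2 folds after culture of 3.69 and 2.17 with TMM, 3.15 and 1.64 with total gene counts, and 3.38 and 1.87 after background was subtracted and the scale recomputed. Pkm2 and Aldoa had 1.47 and 1.37, then 0.94 and 0.84, then 1.11 and 1.01. On the lower side Slc16a1 had -1.18, -1.70 and -1.53. Gapdh passed the test under both TMM (0.79) and the recomputed scale (0.43) and not with total gene counts (0.25). Hif1a and Ldha were the 2 called members whose sign turned.

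**Figure D5:**
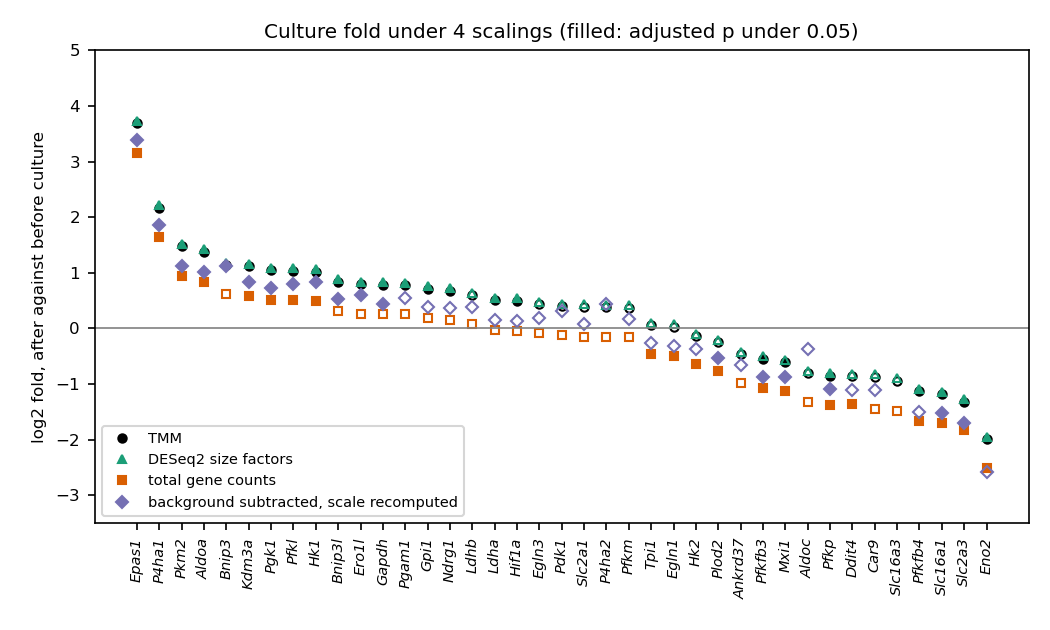
Log2 fold after against before culture of each member under 4 scalings, in order of the TMM value; filled symbols passed an adjusted p of 0.05. Total gene counts lie below TMM for all members shown, and Epas1 and P4ha1 stay above 1.5 and Slc16a1 below -1 under each scaling. Of the members called with TMM, Ldha and Hif1a cross 0. Members that were not called, such as Slc2a1, Pfkm, Pdk1, Egln3 and P4ha2, cross 0 too.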

How the data were processed

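Total RNA of 4 samples (wild type and homozygous mutant, before and after culture, 1 library each) was sequenced with a stranded paired-end kit and a read length of 75, per the labels' protocols. The authors' deposited values are counts per gene. STAR, HTSeq 0.11.2, bcl2fastq and the build mm10 are named in the submitters' processing notes, and the headers carry no more; for the annotation and strand setting the sources used here name none. The 5 summary classes that name no gene were left out, and the rest, the gene counts, were 7.94 to 10.5% of read pairs. Members and gene lists were chosen with earlier results of these data known.

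Folds between 2 libraries are ratios of TMM-scaled CPM with 95% Clopper-Pearson intervals, for genes with 20 or more counts in at least 1 of them. Intervals and the limit of 3 counts behind a 0 cover counting error only. Log2 folds between 2 libraries, and their medians, used a prior count of 2. Culture and genotype were tested with edgeR 4.0.16 (R 4.3.3, glmQLFit, terms genotype and culture, Benjamini-Hochberg over 18949 genes, threshold 0.05). The 1 residual degree of freedom of each gene was pooled over genes with an infinite prior, so the spread is essentially that of the average gene. Both parts of a sort came from the same pooled litter per the labels' protocols, and the genotype term pairs them; nothing gives separate litters, so p-values measure the spread between these samples only. DESeq2 1.42.0, other scales, minimums and background subtraction were the alternatives. Near-identical copies were sought with blastn 2.17.0 in GENCODE transcripts of GRCm38, and exon lengths matched 98.0% of symbols. All members at the minimum are named, and of other lists up to 3 called genes with the most counts.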

Additional observations from a re-analysis of the deposited data

Results flagged for a closer look

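For 5 members the mutant library lay above the wild type before culture and below it after culture, with both counting intervals clear of 1; the difference between the 2 states was not tested, since each group is 1 library. The genotype fold before and after culture was 1.28 and 0.759 for Gpi1, 1.22 and 0.813 for Aldoa, and 1.25 and 0.811 for Pgk1. It was 1.13 and 0.884 for Hif1a and 1.13 and 0.808 for Epas1. With background subtracted and the scale recomputed, the fold before culture was 1.15 for Gpi1, 1.07 for Aldoa, 1.12 for Pgk1, 0.994 for Hif1a and 1.01 for Epas1, and after culture it was 0.779, 0.838, 0.832, 0.910 and 0.833. All but Hif1a still lay on opposite sides of 1 in the 2 states, Epas1 by little before culture. The summed stromal markers were 3280 CPM in wild type and 5236 in mutant before culture, and 1173 and 980 after it; their part in these folds was not tested.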

How the results depend on the processing

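For the members called after culture over both genotypes (17 higher, 7 lower), total gene counts gave 8 higher and 12 lower. Over all 18949 genes that setting gave 1955 higher and 6478 lower. The members lower were 1 with DESeq2, which gives no adjusted p for Eno2, and 1 with background subtracted on the kept scale. Leaving out each library in turn gave 14 to 18 higher and 3 to 5 lower, with the lowest count of 3 without the mutant library before culture; the library left alone in its group was assumed to vary like the others. With total gene counts the log2 folds of Ldha and Hif1a turned to -0.0316 and -0.0410. In wild type (5 higher, 1 lower, median 0.67) total gene counts gave 2 higher, 4 lower and a median of 0.0505. Calling at a past-1.5-fold interval gave 12 and 3, and calling by the fold itself past 2 gave 12 and 7. A minimum of 50 counts gave 0 lower. Background subtraction gave 9 higher and 0 lower on the kept scale, and 3 higher with a median of 0.30 on the recomputed one. Leaving out a list of 8 members thought to have many processed pseudogenes, Aldoa among them, gave 2 higher and a median of 0.29. Leaving out the 10 with a pseudogene copy found by blastn, a set without Aldoa that was chosen after seeing the data, gave 3 higher and a median of 0.20. In mutant (3 higher, 0 lower, median 0.29) total gene counts gave 3 lower and a median of -0.15, the 1.5-fold interval 8 and 3, and the fold itself 6 and 5. There the recomputed background scale gave 2 lower and a median of 0.10, and leaving out the 8 and the 10 members gave medians of 0.0746 and 0.0557. Mutant against wild type before culture had 1 member called higher with background subtracted on either scale. Without the pairing by genotype (no replicate block) the fit again gave 17 higher and 7 lower; the labels give no replicate numbers beyond 1 library a group. In total 125 summary values kept their side or stayed within 1.5 times and 33 did not. Of the values of single members 1234 were counted as kept, 109 moved, 47 lost and 9 gained their call, and 2 values of called members turned sign. Members that were not called could change sign and still be counted as kept. Pdk1 was 1 such member, with log2 folds from -0.12 to 0.68 across the settings. The cause of these changes was not tested. Depth limits the low members: the wild-type library after culture, with 1694669 gene counts, had under 20 counts for 8 of the 39.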
